A study of Mus musculus with 16 samples.

Results

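Type I interferon response genes are those that cells switch on when interferon alpha or beta binds its receptor, and 39 of them were followed here by name among the 54532 genes of the deposited tables. Each of the 39 matched 1 gene, and each was among the 15469 genes that passed the filter on low counts. RNA came from bone marrow macrophages, which CSF-1, a growth factor that macrophages depend on, had expanded from tibial marrow of C57BL/6 mice of the wild type, aged 2 to 3 months. The study concerns the αV integrin, an adhesion receptor subunit, and macrophages in the infarcted heart. Each dish had been coated with fibronectin (10 µg/ml), a matrix protein that integrins bind, or was a plain culture dish, and each received for 24 h either an antibody that neutralizes ITGAV, the αV subunit, or an IgG antibody (10 µg/ml). This gave 4 groups of 4 libraries, called fibronectin_antiITGAV, fibronectin_IgG, uncoated_antiITGAV and uncoated_IgG. No interferon, virus or microbial product is among the labelled treatments.

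Interferon alpha and beta act through a receptor of IFNAR1 and IFNAR2, whose kinases activate transcription factors, STAT2 among them. With IRF9 these form a complex that binds interferon-stimulated response elements, short DNA repeats with the core GAAA, in the promoters of its target genes. The products of those genes sense viral nucleic acid, block translation or degrade RNA, trap or damage virus particles, and feed back on the pathway. Macrophages are known to keep a low tonic level of this programme even without infection.

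RefSeq promoter windows on GRCm38.p6, 250 bases before to 50 after each start site, were matched by symbol for 28 of the 39 genes. A pair of response element cores at the usual spacing, GAAA then any 2 bases then GAAA, was searched for on both strands, overlapping matches included. It occurred in 15 of the 28 genes' windows (53.6%) and in 3.99% of the windows of all 27025 genes with one. The letters TTCNNNGAA, the core that STAT dimers bind, occurred in 7 of the 28 (25%) and in 9.55% of all. The windows of Ifit3b, Ifit3, Irf1 and Isg15 are shown because Ifit3b and Irf1 differ with the coating below, Ifit3 is the near copy of Ifit3b, and Isg15 holds 3 overlapping matches. Each is written from its own strand, with matches in capitals, the GAAA pair or its reverse complement in Ifit3b, Ifit3 and Isg15 and TTCNNNGAA in Irf1.
Ifit3b: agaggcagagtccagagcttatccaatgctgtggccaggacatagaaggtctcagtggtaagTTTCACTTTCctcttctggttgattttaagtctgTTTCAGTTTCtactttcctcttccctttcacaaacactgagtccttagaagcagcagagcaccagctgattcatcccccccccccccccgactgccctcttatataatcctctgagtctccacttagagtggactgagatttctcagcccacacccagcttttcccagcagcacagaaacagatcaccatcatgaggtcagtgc
Ifit3: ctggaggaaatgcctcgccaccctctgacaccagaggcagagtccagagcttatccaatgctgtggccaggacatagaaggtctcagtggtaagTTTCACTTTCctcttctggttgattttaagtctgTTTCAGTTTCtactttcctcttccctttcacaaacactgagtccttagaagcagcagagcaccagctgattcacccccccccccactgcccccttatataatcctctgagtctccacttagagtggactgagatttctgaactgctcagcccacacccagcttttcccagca
Irf1: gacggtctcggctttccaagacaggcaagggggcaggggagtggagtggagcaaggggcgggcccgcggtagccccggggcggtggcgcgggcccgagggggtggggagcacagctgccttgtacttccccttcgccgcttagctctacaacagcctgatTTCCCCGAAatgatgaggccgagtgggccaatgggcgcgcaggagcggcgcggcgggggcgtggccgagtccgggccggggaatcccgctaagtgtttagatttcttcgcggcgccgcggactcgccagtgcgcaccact
Isg15: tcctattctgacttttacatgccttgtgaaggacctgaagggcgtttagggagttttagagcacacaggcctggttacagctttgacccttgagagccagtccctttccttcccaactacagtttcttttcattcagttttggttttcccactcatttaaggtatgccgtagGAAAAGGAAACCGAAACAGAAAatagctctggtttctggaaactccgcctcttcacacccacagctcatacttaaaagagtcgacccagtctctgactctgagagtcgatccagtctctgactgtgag
They lie at chr19:34607707-34608006, chr19:34583279-34583578, chr11:53769764-53770063 (each plus strand) and chr4:156200769-156201068 (minus strand). Ifit3b and Ifit3 have the same pair of matches, spaced alike, and their windows are identical at 258 of 260 aligned bases (99.2%). The nearest match to the start begins at -154 in Ifit3b, -122 in Ifit3 and -66 in Isg15, and the match of Irf1 begins at -90. The Irf1 window holds no GAAA pair of this spacing, which says only that these letters are not there.

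Library totals were 27995000 to 43413600 counts, and each of the 39 genes was counted in all 16 libraries. Nothing in the labels ties a replicate to its own culture or mouse, so p-values here reflect spread between samples that may be only technical. The library fibronectin_antiITGAV 3 stood apart, with 3.67% of its counts in mitochondrial genes against 1.30 to 1.60% in the other 15, and the calls below, and the genes that lay farthest off in it, are given without it as well. Macrophage markers were abundant, with summed levels of 32802 to 39962 CPM over 15 genes and none at 0. Levels are given as CPM, a count divided by the library total after scaling with edgeR's TMM factors, and values in a group are given from replicate 1 to 4. In a bulk sample, fewer cells of a type and less RNA per cell cannot be told apart.

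Interferon response RNAs were present throughout, at levels that spread over more than 300-fold between genes. Per length, in the deposited FPKM averaged over 16 libraries, Ifi27l2a (333 FPKM), a small interferon-induced membrane protein, and Bst2 (329.9 FPKM), the tetherin that holds budding virus on the cell, were far above the rest. Oas1a, which makes the messenger that activates RNase L, came next at 70.8 FPKM, followed by Rtp4 at 61.1 FPKM. Ifi44 was lowest at 0.954 FPKM, and Isg20, Herc6, Mx2, Cxcl10 and Ifit3b stood between 1.74 and 3.78 FPKM. The 4 transcription factors spanned 14.4 (Irf1) to 36.1 FPKM (Irf7), and the 6 sensors 7.86 (Ifih1) to 37.8 FPKM (Ifi204). Among the sensors, Dhx58 and Ddx58 (19.3 and 19.2 FPKM) overlapped in range over the libraries, and across roles Ifi27l2a and Bst2 did.

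**Figure D1:**
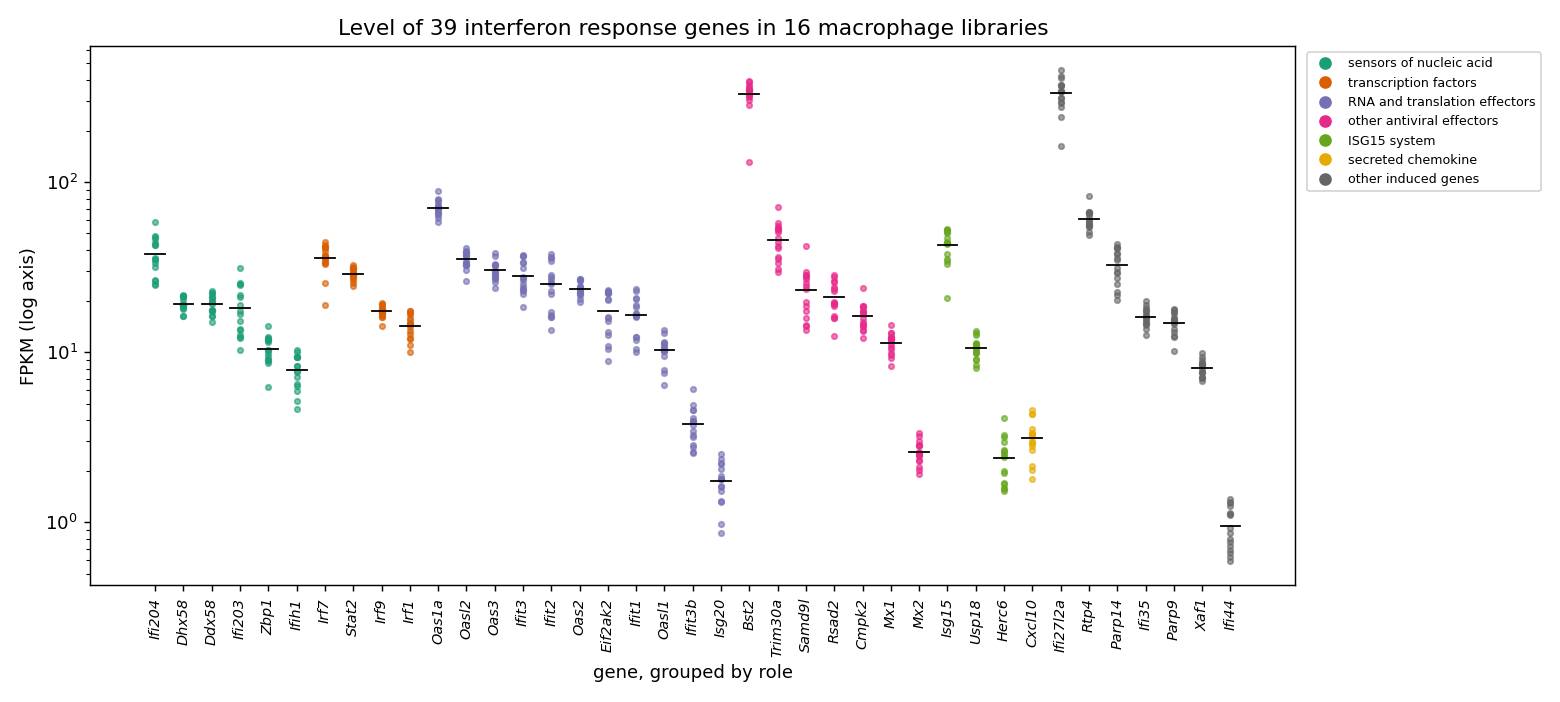
FPKM of the 39 genes (log axis) in each of 16 libraries (points) with the mean over libraries (bar), ordered by level within each role. Ifi27l2a and Bst2 stand above all others, and Ifi44, Isg20, Herc6, Mx2, Cxcl10 and Ifit3b lie lowest.

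On fibronectin, 4 of the 39 genes were lower than on uncoated dishes over the mean of both antibodies, and 0 were higher. These were the transcription factor Irf1, the membrane protein Ifi27l2a, the nucleic acid sensor Zbp1 and Ifit3b, of the RNA and translation effectors. Each had a fall of 0.36 to 0.46 on the log2 scale. A gene was called when edgeR's quasi-likelihood test gave a Benjamini-Hochberg adjusted p under 0.05 over all 15469 genes. The share of all genes called lower in this comparison was 5.26%, and called in either direction 11.8%, against 10.3% of the 39, all of them lower. In either direction the share of the 39 was thus near that of all genes. Under anti-ITGAV alone 2 of the 39 were called, Irf1 and Ifi27l2a, both lower, against 5.66% of all genes called in either direction and 2.83% lower. With IgG alone 0 of the 39 were called, against 3.79% of all genes in either direction and 1.42% lower. There 7 of the 39 had an unadjusted p under 0.05, against 15.2% of all genes, with 6 lower (6.39% of all genes) and 1 higher (8.83% of all genes). DESeq2 called 0 of the 39 there too, but the count depended on the method. Voom with quality weights called 4 lower there. Its own share of all genes is not given here. Calls over all genes ran from 309 to 2481 under the other settings, against 586 in the main fit. A fit with a GC trend taken out called 3 lower, against 4.16% of all genes lower with it. The median log2 change of the 39 was -0.05 over both antibodies, -0.03 under anti-ITGAV and -0.12 under IgG, against 0.00, 0.01 and 0.00 for all genes. Without fibronectin_antiITGAV 3 the medians of the 39 were -0.07, -0.09 and -0.12. Fitted with all 16 libraries, the log2 change was above 0 for 11, 17 and 12 of the 39, and for 50.6, 50.9 and 50.3% of all genes, in the same order. Of the 39, every fibronectin library lay below every uncoated one for 3 under anti-ITGAV (Irf1, Zbp1 and Ifi27l2a, against 7.53% of all genes) and for 1 under IgG (Ifi27l2a, against 5.26%). The IgG and anti-ITGAV comparisons each enter the mean, so these are not separate pieces of evidence.

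Irf1 (chromosome 11, 53770014 to 53778374, plus strand, GRCm38), a factor that interferon gamma induces strongly and that itself activates interferon target genes, had the smallest adjusted p. Irf1 had 49.7, 56.1, 39.9 and 48.2 CPM with anti-ITGAV on fibronectin, and 52, 60.0, 54.3 and 45.1 CPM with IgG on fibronectin. On uncoated dishes Irf1 had 68.7, 67.9, 71.3 and 64 CPM with anti-ITGAV and 70.5, 58.7, 59.1 and 62.4 CPM with IgG. Under anti-ITGAV every fibronectin library lay below every uncoated one, and under IgG 3 of 4 did, with fibronectin_IgG 2 inside the uncoated range. Over both antibodies the log2 change was -0.37 ± 0.08 (SE, adjusted p = 0.00414 by edgeR), and under anti-ITGAV it was -0.49 ± 0.11 (SE, adjusted p = 0.0141 by edgeR). With IgG alone it was -0.25 ± 0.11 (SE, adjusted p = 0.281 by edgeR) and did not pass. The library fibronectin_antiITGAV 3 was the lowest of the 16; without it the change under anti-ITGAV was -0.40 ± 0.09 (SE, edgeR adjusted p = 0.0157). The call under anti-ITGAV ended without uncoated_antiITGAV 3 (edgeR adjusted p = 0.0514) and with its 8 libraries fitted alone (0.062). Over both antibodies the change was -0.33 ± 0.06 (SE, edgeR adjusted p = 0.00177) without fibronectin_antiITGAV 3.

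The other factors, Irf7, Irf9 and Stat2, passed in no comparison. Irf7 drives transcription of the interferon alpha genes and is itself strongly induced by interferon. Irf7 had 132, 159, 71.9 and 136 CPM with anti-ITGAV on fibronectin, and 136, 158, 139 and 98.9 CPM with IgG on fibronectin. On uncoated dishes Irf7 had 166, 156, 171 and 143 CPM with anti-ITGAV and 150.3, 139.9, 125 and 129 CPM with IgG. With anti-ITGAV on fibronectin the low value was that of fibronectin_antiITGAV 3, and the coating groups overlapped under both antibodies. The coating's log2 change over both antibodies was -0.19 ± 0.13 (SE, adjusted p = 0.403 by edgeR), and -0.10 ± 0.08 (SE) without that library. Irf9, the DNA-binding subunit of the interferon-activated complex, had a coating log2 change of -0.01 ± 0.06 (SE). Irf9 had 93.1, 97.4, 105 and 95.3 CPM with anti-ITGAV on fibronectin, and 89.3, 105, 94.1 and 78.7 CPM with IgG on fibronectin. On uncoated dishes Irf9 had 102, 103, 98.6 and 94.7 CPM with anti-ITGAV and 93.3, 87.3, 91.9 and 91.2 CPM with IgG. On uncoated dishes all 4 anti-ITGAV libraries of Irf9 lay above all 4 IgG ones, with a log2 change of 0.13 ± 0.09 (SE, adjusted p = 0.988 by edgeR), while on fibronectin they overlapped.

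Stat2, a partner of IRF9 in that complex, was not called. Stat2 had 163, 189.6, 162 and 168 CPM with anti-ITGAV on fibronectin, and 170.2, 188, 176 and 155 CPM with IgG on fibronectin. On uncoated dishes Stat2 had 188, 195, 190.0 and 174 CPM with anti-ITGAV and 183, 170.1, 147 and 173 CPM with IgG. Its groups overlapped in each pair, and its log2 change for the coating was -0.05 ± 0.06 (SE, adjusted p = 0.690 by edgeR). For the antibody over both coatings it was 0.07 ± 0.06 (SE), within the spread of the libraries.

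Among the 6 sensors, Zbp1 fell on fibronectin and the other 5 were not called. Zbp1 (chromosome 2, 173206612 to 173218923, minus strand) binds Z-form nucleic acid and can start inflammatory cell death. Zbp1 had 32.7, 40.7, 32.5 and 30.7 CPM with anti-ITGAV on fibronectin, and 32.2, 37.1, 34.3 and 22.6 CPM with IgG on fibronectin. On uncoated dishes Zbp1 had 42.8, 50.6, 43.5 and 42.1 CPM with anti-ITGAV and 43.9, 42.9, 35.1 and 37.4 CPM with IgG. Under anti-ITGAV the coating groups of Zbp1 did not overlap, and under IgG 3 fibronectin libraries lay below the uncoated range, fibronectin_IgG 4 lowest of all. The log2 change over both antibodies was -0.36 ± 0.10 (SE, adjusted p = 0.0205 by edgeR), and it was -0.39 ± 0.14 under anti-ITGAV and -0.34 ± 0.14 under IgG, neither called (edgeR adjusted p = 0.110 and 0.232). Without fibronectin_antiITGAV 3 it was -0.35 ± 0.10 (SE). The call ended without uncoated_IgG 1 (edgeR adjusted p = 0.0537) or uncoated_antiITGAV 2 (0.0534).

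The RNA helicases that sense viral RNA showed no call. Dhx58 (LGP2), which tunes the other helicase sensors, overlapped between coatings. Dhx58 had 64.4, 70.4, 53.6 and 60.0 CPM with anti-ITGAV on fibronectin, and 62.9, 70.9, 67.9 and 54.7 CPM with IgG on fibronectin. On uncoated dishes Dhx58 had 72.2, 71.3, 70.5 and 62.5 CPM with anti-ITGAV and 63, 61.5, 59 and 63.5 CPM with IgG. Its log2 change was -0.05 ± 0.07 (SE). Ifih1 (MDA5), the sensor of long viral RNA, ranged widely in each group. Ifih1 had 79, 59.3, 76.9 and 63.7 CPM with anti-ITGAV on fibronectin, and 78.5, 42.9, 52.8 and 69.7 CPM with IgG on fibronectin. On uncoated dishes Ifih1 had 38.9, 63.5, 54.3 and 83.4 CPM with anti-ITGAV and 84.8, 77.2, 68.3 and 49.1 CPM with IgG. The lowest and highest of its 16 values were both in uncoated libraries, and the log2 change was 0.01 ± 0.16 (SE, adjusted p = 0.982 by edgeR). Ddx58 (RIG-I) had 108 to 162 CPM over the 16 libraries and a log2 change of -0.19 ± 0.08 (SE, adjusted p = 0.142 by edgeR).

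Ifi204 and Ifi203, genes of the DNA-binding PYHIN family on chromosome 1, followed each other closely from library to library. Ifi204 had 159.8, 129, 207 and 120.0 CPM with anti-ITGAV on fibronectin, and 157, 89.3, 91.5 and 128 CPM with IgG on fibronectin. On uncoated dishes Ifi204 had 96.5, 127, 115 and 167 CPM with anti-ITGAV and 174, 172, 153 and 97.2 CPM with IgG. The highest value was that of fibronectin_antiITGAV 3, and all pairs of groups overlapped. Ifi204 had a log2 change of -0.03 ± 0.16 (SE, adjusted p = 0.929 by edgeR) for the coating (-0.12 ± 0.17, SE, without that library) and one of the 3 smallest unadjusted p-values of the 39 for the coating by antibody interaction (0.64 ± 0.32, SE, edgeR adjusted p = 0.646). Of its transcript, 16.8% of 100-base windows also occur in another gene, mainly Ifi211, so its count may hold reads of that copy.

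Ifit3b was the 1 gene called of the 11 RNA and translation effectors. The Ifit1 protein binds viral RNA that lacks the host's cap methylation, and Ifit1, Ifit2, Ifit3 and Ifit3b all lie on chromosome 19. Ifit3b had 6.73, 7.92, 7.48 and 5.17 CPM with anti-ITGAV on fibronectin, and 8.05, 5.28, 5.77 and 5.67 CPM with IgG on fibronectin. On uncoated dishes Ifit3b had 7.03, 9.27, 8.04 and 9.21 CPM with anti-ITGAV and 9.94, 12.3, 8.30 and 6.49 CPM with IgG. Under anti-ITGAV 2 fibronectin libraries of Ifit3b lay below the uncoated range and under IgG 3 did, and in each antibody the groups overlapped. Ifit3b (chromosome 19, 34607970 to 34613401, plus strand) had a log2 change of -0.44 ± 0.14 (SE, adjusted p = 0.0470 by edgeR) over both antibodies, -0.58 ± 0.19 under IgG (SE, edgeR adjusted p = 0.123) and -0.30 ± 0.19 under anti-ITGAV. Its call held when any of uncoated_IgG 4, uncoated_antiITGAV 1, fibronectin_IgG 1, fibronectin_antiITGAV 2 or fibronectin_antiITGAV 3 was left out and ended without any 1 of the other 11 (edgeR adjusted p = 0.0526 to 0.104). 

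Ifit3, the more abundant copy, did not pass. Ifit3 had 47.6, 59.2, 42.5 and 39 CPM with anti-ITGAV on fibronectin, and 49.6, 32.7, 41.5 and 40.8 CPM with IgG on fibronectin. On uncoated dishes Ifit3 had 45.2, 65.3, 60.4 and 55.6 CPM with anti-ITGAV and 65.1, 65.2, 48.4 and 41.1 CPM with IgG. The lowest library was fibronectin_IgG 2, and both pairs of coating groups overlapped. Its log2 change over both antibodies was -0.34 ± 0.12 (SE, adjusted p = 0.0809 by edgeR), and DESeq2 called it (adjusted p = 0.0488). Ifit3 and Ifit3b share 31.7 and 27.4% of their 100-base windows, so part of either count may belong to the other. Ifit1, the founding member, spread widely in all groups. Ifit1 had 45.5, 49.6, 61.3 and 33 CPM with anti-ITGAV on fibronectin, and 43.8, 28.1, 31.7 and 44.3 CPM with IgG on fibronectin. On uncoated dishes Ifit1 had 33.4, 50.7, 44.4 and 54.9 CPM with anti-ITGAV and 55.7, 63.3, 45.8 and 27.3 CPM with IgG. Its low and high values occurred on both coatings, and the log2 change was -0.16 ± 0.17 (SE, adjusted p = 0.611 by edgeR).

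None of the oligoadenylate synthetase genes was called. Oas1a was the most abundant of them per length. Oas1a had 134, 145, 116 and 126 CPM with anti-ITGAV on fibronectin, and 125, 169.6, 136 and 113 CPM with IgG on fibronectin. On uncoated dishes Oas1a had 153, 140.0, 150.5 and 135 CPM with anti-ITGAV and 133, 130.5, 125 and 137 CPM with IgG. The groups overlapped in every pair, and the coating's log2 change was -0.05 ± 0.08 (SE). 40.9% of its 100-base windows also occur in Oas1g, so its count is uncertain between these copies. Oas3, the longest synthetase of the family, was one of the 2 genes with all anti-ITGAV libraries above all IgG ones on uncoated dishes. Oas3 had 217, 263, 197 and 206 CPM with anti-ITGAV on fibronectin, and 219.6, 273, 232 and 189 CPM with IgG on fibronectin. On uncoated dishes Oas3 had 237, 234, 236 and 207 CPM with anti-ITGAV and 196, 194, 169.7 and 207 CPM with IgG. There its log2 change was 0.25 ± 0.11 (SE, unadjusted p = 0.0384, edgeR adjusted p = 0.988), and on fibronectin the antibodies overlapped (-0.05 ± 0.11, SE). Oas3 was also the 1 gene of the 39 with an upward unadjusted p under 0.05 for the coating under IgG (0.25 ± 0.11, SE).

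Oasl1, which is reported to restrain Irf7 translation in mice, was lowest of its 16 values in fibronectin_antiITGAV 3. Oasl1 had 29.1, 34.2, 16.9 and 27.4 CPM with anti-ITGAV on fibronectin, and 27.3, 35.6, 27.9 and 20.3 CPM with IgG on fibronectin. On uncoated dishes Oasl1 had 30.7, 29.3, 28.3 and 26.9 CPM with anti-ITGAV and 29.8, 26.9, 20.6 and 25.5 CPM with IgG. All pairs of groups overlapped, and the coating's log2 change was 0.01 ± 0.13 (SE), and 0.09 ± 0.10 (SE) without that library. Isg20, an exonuclease that degrades RNA, was the least abundant of these effectors per length. Isg20 had 3.43, 4.20, 1.61 and 2.53 CPM with anti-ITGAV on fibronectin, and 3.44, 4.74, 4.44 and 1.86 CPM with IgG on fibronectin. On uncoated dishes Isg20 had 3.07, 3.83, 4.20 and 3.37 CPM with anti-ITGAV and 3.09, 2.89, 2.47 and 3.53 CPM with IgG. Its range was widest on fibronectin, where both the lowest and the highest library lay, and the coating's log2 change was -0.01 ± 0.20 (SE), and 0.09 ± 0.18 (SE) without fibronectin_antiITGAV 3. Oasl2, a relative of Oasl1, had one of the 3 smallest p-values of the 39 for the antibody over both coatings. Oasl2 had 212, 249, 261 and 196 CPM with anti-ITGAV on fibronectin, and 222, 243, 214 and 172 CPM with IgG on fibronectin. On uncoated dishes Oasl2 had 249.6, 249, 255 and 237 CPM with anti-ITGAV and 241, 219.9, 208 and 211 CPM with IgG. On fibronectin 2 anti-ITGAV libraries lay above the IgG range and on uncoated dishes 3 did, and the antibody's log2 change was 0.14 ± 0.08 (SE, adjusted p = 1.000 by edgeR). Ifit2, Oas2 and Eif2ak2 (the kinase PKR, which halts translation) had coating log2 changes of -0.29, 0.00 and 0.10, none called.

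**Figure D2:**
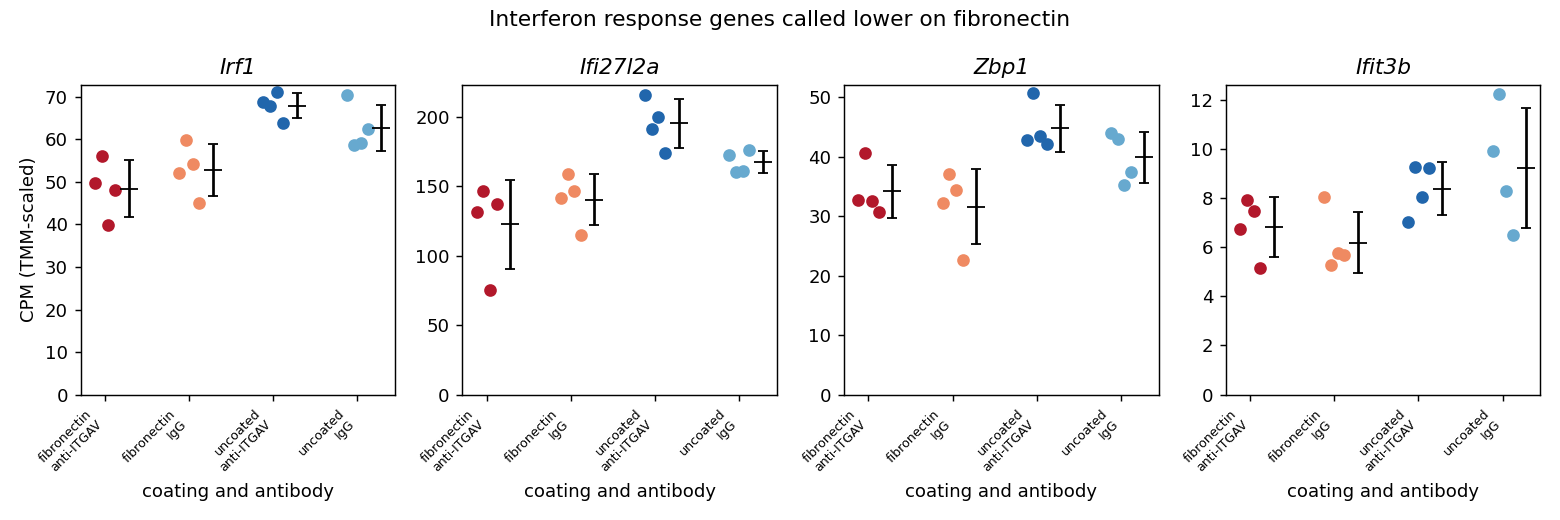
TMM-scaled CPM of Irf1, Ifi27l2a, Zbp1 and Ifit3b in each library (points), with the mean and SD of the 4 libraries of a group (black). Ifi27l2a is lower in every fibronectin library than in every uncoated one, whereas Ifit3b overlaps between the coatings.

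None of the 7 other antiviral effectors was called for the coating. Bst2, the tetherin gene, was even in 15 libraries and low in 1. Bst2 had 305, 332, 119 and 289 CPM with anti-ITGAV on fibronectin, and 304, 359.8, 319 and 264 CPM with IgG on fibronectin. On uncoated dishes Bst2 had 347, 314, 356 and 294 CPM with anti-ITGAV and 314, 323, 278 and 322 CPM with IgG. The exception was fibronectin_antiITGAV 3, and the coating's log2 change was -0.16 ± 0.15 (SE, adjusted p = 0.573 by edgeR), and -0.04 ± 0.07 (SE) without that library. Rsad2 (viperin), an enzyme that makes a chain-terminating nucleotide, was not called. Rsad2 had 85.3, 106, 113 and 70.0 CPM with anti-ITGAV on fibronectin, and 83.6, 54.9, 72 and 84.9 CPM with IgG on fibronectin. On uncoated dishes Rsad2 had 88.3, 115, 104 and 101 CPM with anti-ITGAV and 121, 126, 85.5 and 70.4 CPM with IgG. Both pairs of coating groups overlapped, and the log2 change was -0.29 ± 0.13 (SE, adjusted p = 0.200 by edgeR). Cmpk2, the nucleotide kinase next to Rsad2 on chromosome 12, had the smallest p of the 39 for the antibody over both coatings. Cmpk2 had 62.6, 78.1, 99.5 and 60.2 CPM with anti-ITGAV on fibronectin, and 58.2, 66.8, 63.9 and 60.6 CPM with IgG on fibronectin. On uncoated dishes Cmpk2 had 73.8, 74.6, 79.4 and 70.6 CPM with anti-ITGAV and 72.4, 77.6, 50.9 and 57 CPM with IgG. On fibronectin 2 anti-ITGAV libraries lay above the IgG range and on uncoated dishes 1 did, and fibronectin_antiITGAV 3 was the highest library. The antibody's log2 change was 0.24 ± 0.11 (SE, unadjusted p = 0.0365, edgeR adjusted p = 1.000) and did not pass.

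Mx1 and Mx2, dynamin-like GTPases that block influenza and other viruses, were not called in any comparison. C57BL/6 mice are known to carry a defective Mx1, and Mx2 is listed in the deposited table as a polymorphic pseudogene. Mx1 had 47.6, 55.6, 46.8 and 36.7 CPM with anti-ITGAV on fibronectin, and 46.3, 32, 40.1 and 46.4 CPM with IgG on fibronectin. On uncoated dishes Mx1 had 41.7, 45.1, 43.2 and 49.8 CPM with anti-ITGAV and 45.6, 49.6, 37.7 and 35.9 CPM with IgG. The 3 highest anti-ITGAV libraries on fibronectin were above the IgG range there, with the fourth inside it, and the antibody's log2 change on fibronectin was 0.18 ± 0.14 (SE, adjusted p = 0.721 by edgeR). Mx2 had 9.05, 10.3, 10.2 and 7.07 CPM with anti-ITGAV on fibronectin, and 10.6, 7.48, 8.57 and 9.51 CPM with IgG on fibronectin. On uncoated dishes Mx2 had 9.35, 9.02, 11.9 and 9.49 CPM with anti-ITGAV and 11, 12.2, 8.37 and 7.83 CPM with IgG. Its groups overlapped throughout, with a coating log2 change of -0.12 ± 0.12 (SE).

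Samd9l, a translation inhibitor of the cell, had the largest upward value of the 39 for the coating and was not called. Samd9l had 158, 107, 229.9 and 129.9 CPM with anti-ITGAV on fibronectin, and 165, 87, 96.7 and 137 CPM with IgG on fibronectin. On uncoated dishes Samd9l had 75.2, 102, 78.9 and 149 CPM with anti-ITGAV and 156, 152, 139 and 79.7 CPM with IgG. Under anti-ITGAV 2 fibronectin libraries lay above the uncoated range, fibronectin_antiITGAV 3 farthest, and under IgG 1 did. The log2 change was 0.26 ± 0.19 (SE, adjusted p = 0.469 by edgeR) over both antibodies and 0.63 ± 0.28 under anti-ITGAV (SE, edgeR adjusted p = 0.191), and without that library these were 0.13 ± 0.20 and 0.38 ± 0.30 (SE). Trim30a, which dampens Toll-like receptor signalling, had 125 to 293 CPM and a log2 change of 0.04 ± 0.16 (SE).

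The ISG15 system gave no call. Isg15 encodes a ubiquitin-like protein that interferon induces and that ligases attach to other proteins. Isg15 had 33.5, 40.6, 15.8 and 26.9 CPM with anti-ITGAV on fibronectin, and 34.3, 39.9, 33.8 and 26.5 CPM with IgG on fibronectin. On uncoated dishes Isg15 had 40.5, 39, 38.7 and 34 CPM with anti-ITGAV and 33.4, 35.9, 25.2 and 29.4 CPM with IgG. Its lowest library was fibronectin_antiITGAV 3, all pairs of groups overlapped, and the coating's log2 change was -0.13 ± 0.15 (SE, adjusted p = 0.644 by edgeR), and -0.03 ± 0.10 (SE) without that library. Usp18 removes ISG15 and shuts off receptor signalling. Usp18 had 29.9, 36.3, 37.4 and 28.1 CPM with anti-ITGAV on fibronectin, and 31.8, 35.6, 28.1 and 23.2 CPM with IgG on fibronectin. On uncoated dishes Usp18 had 31.9, 31.4, 32.4 and 25.5 CPM with anti-ITGAV and 28.7, 30.1, 23.7 and 26.2 CPM with IgG. The 3 highest anti-ITGAV libraries on uncoated dishes lay above the IgG range, and the antibody's log2 change over both coatings was 0.15 ± 0.10 (SE, adjusted p = 1.000 by edgeR). Herc6, the ligase that attaches ISG15 in mice, was highest in fibronectin_antiITGAV 3. Herc6 had 23.8, 18.8, 38.1 and 24 CPM with anti-ITGAV on fibronectin, and 25.1, 14.9, 16 and 23 CPM with IgG on fibronectin. On uncoated dishes Herc6 had 14.6, 18.2, 16.2 and 29.7 CPM with anti-ITGAV and 30.6, 27.8, 24.8 and 14.8 CPM with IgG. All its groups overlapped, with a coating log2 change of 0.05 ± 0.19 (SE), and -0.07 ± 0.20 (SE) without that library.

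Cxcl10, the secreted chemokine that draws CXCR3-bearing T cells, was low in these cultures. Cxcl10 had 6.53, 9.85, 10.3 and 6.03 CPM with anti-ITGAV on fibronectin, and 7.75, 6.89, 7.55 and 6.80 CPM with IgG on fibronectin. On uncoated dishes Cxcl10 had 8.16, 6.63, 7.56 and 4.85 CPM with anti-ITGAV and 7.33, 9.81, 4.59 and 4.15 CPM with IgG. On fibronectin the anti-ITGAV libraries split, 2 above and 2 below the IgG range, and on uncoated dishes they lay inside it. The log2 change was 0.22 ± 0.18 (SE, adjusted p = 0.507 by edgeR) for the coating and 0.12 ± 0.18 (SE) for the antibody over both coatings.

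Ifi27l2a (chromosome 12, 103442167 to 103443680, minus strand), the most abundant of the 39 per length, was the 1 gene whose 8 fibronectin libraries all lay below all 8 uncoated ones. Ifi27l2a had 131, 146, 75.5 and 137 CPM with anti-ITGAV on fibronectin, and 141, 158, 146 and 115 CPM with IgG on fibronectin. On uncoated dishes Ifi27l2a had 216, 191, 199.9 and 174 CPM with anti-ITGAV and 173, 160.0, 161 and 176 CPM with IgG. The 2 coatings did not overlap under either antibody, and fibronectin_antiITGAV 3 was the lowest library. Of all genes, 1.81% had no overlap downward across the 8 and 8 libraries. Over both antibodies the log2 change was -0.46 ± 0.11 (SE, adjusted p = 0.00963 by edgeR), under anti-ITGAV -0.67 ± 0.16 (SE, adjusted p = 0.0174 by edgeR) and under IgG -0.25 ± 0.16 (SE, adjusted p = 0.499 by edgeR). Without fibronectin_antiITGAV 3 the change over both antibodies was -0.37 ± 0.07 (SE, edgeR adjusted p = 0.000593) and under anti-ITGAV -0.50 ± 0.10. The call under anti-ITGAV ended without uncoated_antiITGAV 1 or 3 (edgeR adjusted p = 0.0557 and 0.0516) and in the 8 libraries alone (0.0984).

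Parp9, an ADP-ribosyltransferase family member that works with the ubiquitin ligase Dtx3l, was not called. Parp9 had 77, 75.8, 73.4 and 60.8 CPM with anti-ITGAV on fibronectin, and 75.5, 50.6, 61.9 and 68.5 CPM with IgG on fibronectin. On uncoated dishes Parp9 had 65.5, 85, 79.7 and 84.2 CPM with anti-ITGAV and 87.1, 88.2, 77.5 and 72.5 CPM with IgG. Under IgG 3 fibronectin libraries lay below the uncoated range, and under anti-ITGAV 1 did. The log2 change was -0.24 ± 0.09 (SE, adjusted p = 0.0976 by edgeR). The exons of Parp9 and Dtx3l overlap on opposite strands over 9.40% of Parp9's exon bases. Strand is taken as unmarked in these libraries, so their reads there cannot be told apart. Ifi44, the least abundant gene, ranged widely in each group. Ifi44 had 7.80, 5.35, 8.02 and 4.09 CPM with anti-ITGAV on fibronectin, and 6.94, 3.91, 4.30 and 4.57 CPM with IgG on fibronectin. On uncoated dishes Ifi44 had 5.03, 6.88, 4.82 and 8.47 CPM with anti-ITGAV and 7.03, 8.20, 5.72 and 3.72 CPM with IgG. Its log2 change was -0.16 ± 0.19 (SE) for the coating. Ifi35, Xaf1, Rtp4 and Parp14 had log2 changes of 0.11, -0.08, -0.03 and -0.09 for the coating, none called.

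Transcripts of other cell types that can occur in marrow cultures also moved with the coating. The summed level of 7 B lymphocyte markers was 30.0 to 36.8 CPM in fibronectin_antiITGAV and 31 to 44.9 CPM in fibronectin_IgG, against 69.3 to 79.8 CPM in uncoated_antiITGAV and 60.8 to 78 CPM in uncoated_IgG. The 8 mast cell and basophil markers stood at 10.6 to 14.6 and 16.8 to 21.1 CPM on fibronectin with the same antibodies and at 22.7 to 29.6 and 30.2 to 37.1 CPM on uncoated dishes. The 10 fibroblast markers stood at 6.10 to 9.16 and 8.05 to 9.69 CPM, against 11.2 to 14.3 and 13.2 to 15.9 CPM. Over both antibodies 3 of 6 tested B lymphocyte markers, 4 of 8 mast cell and basophil markers and 3 of 6 fibroblast markers were called lower. So were 7 of 12 neutrophil markers, 1 of 6 monocyte markers (Plac8) and 2 of 15 macrophage markers (Adgre1 and Mertk). In these lists 0 were called higher. Of all genes 5.26% were called lower and 11.8% in either direction. Of 9 markers of plasmacytoid dendritic cells, the interferon producers of blood, 6 could be tested and 0 were called. Their sums were 87.7 to 107 and 71.5 to 111 CPM on fibronectin, against 68.9 to 142 and 88.2 to 135 CPM. The median level was 0.269 CPM for these 9 markers and 0.370 CPM for the 7 B lymphocyte markers. Both sums thus rest on the more abundant markers of their list. The fibroblast marker Lum was at 0 in every library. The part of these cells in the lower values of Irf1, Ifi27l2a, Zbp1 and Ifit3b was not tested.

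None of the 39 genes passed the test for neutralizing αV. On uncoated dishes 0 of 39 were called (0.0129% of all genes), on fibronectin 0 of 39 (0.0129% of all genes) and over both coatings 0 of 39 (0.0711% of all genes). DESeq2 also called 0 of the 39 in each, and calls over all genes were 28, 18 and 50 with it. At an unadjusted p under 0.05 the 39 held 1 gene on uncoated dishes (Oas3), 0 on fibronectin and 1 over both coatings (Cmpk2), against 3.04, 4.65 and 3.59% of all genes. On uncoated dishes every anti-ITGAV library lay above every IgG one for 2 of the 39, Irf9 and Oas3, against 2.24% of all genes. The median log2 change of the 39 was 0.05 on uncoated dishes, 0.11 on fibronectin and 0.06 over both, against 0.01, 0.00 and -0.01 for all genes. The value was above 0 for 26, 27 and 30 of 39 genes, against 53.2, 50 and 45.4% of all genes. These shares are a description, since the 39 genes vary together from library to library. The median SE of a gene's log2 change was 0.12 over both coatings. Neutrophil markers moved with the antibody, with 4 of 12 called lower over both coatings (S100a9, Ltf, Lcn2 and Camp), and their sum was 246 to 412 CPM with anti-ITGAV on fibronectin against 366 to 454 CPM with IgG, and 364 to 416 against 466 to 505 CPM on uncoated dishes. Of 8 mast cell and basophil markers, 1 (Prss34) was called lower over both coatings, and the sums of this list given above did not overlap between the antibodies on either coating. The part of these cells in the values of the 39 was not tested.

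**Figure D3:**
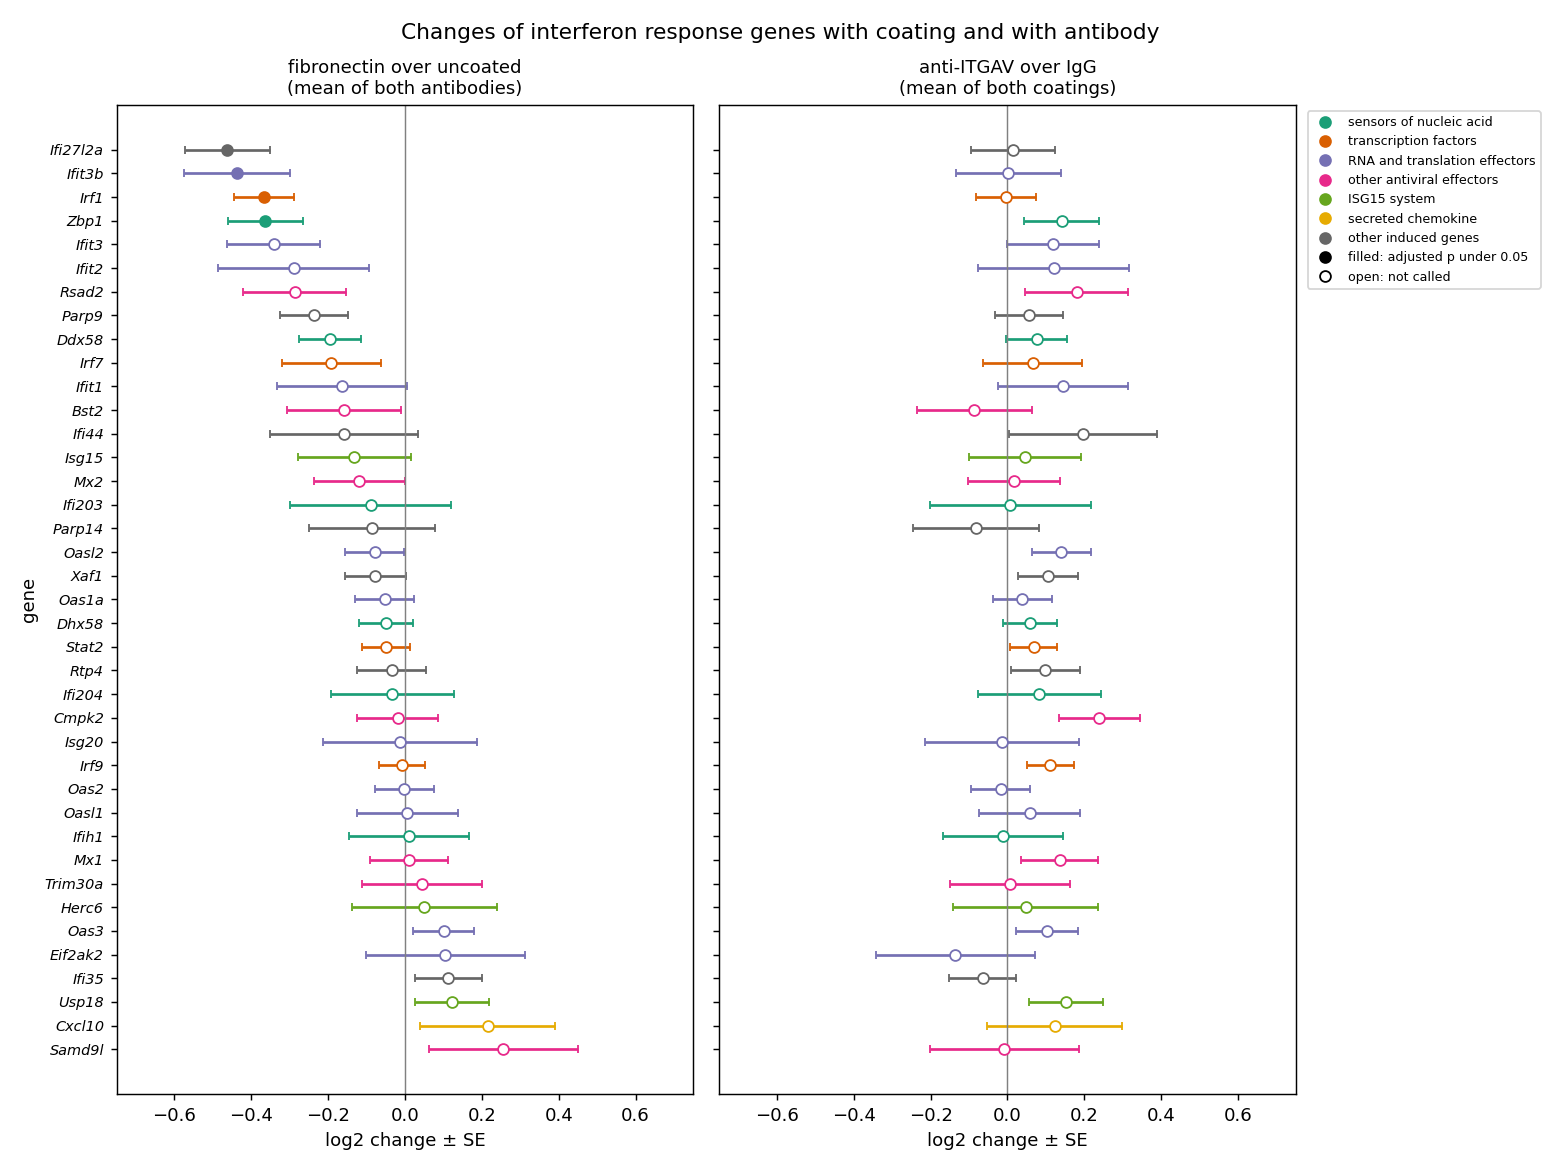
Log2 change of each of the 39 genes with its SE, for fibronectin over uncoated (left, mean of both antibodies) and anti-ITGAV over IgG (right, mean of both coatings), coloured by role and filled where the adjusted p is under 0.05. Ifi27l2a, Ifit3b, Irf1 and Zbp1 are filled on the left, and no point is filled on the right.

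Whether the antibody acted differently on the coatings was tested as an interaction, and 0 of the 39 genes passed. EdgeR called 0 of all genes (0%), 614 (3.97%) had an unadjusted p under 0.05 with 0 of the 39 among them, and DESeq2 called 1 gene, which is not among the 39. The 3 genes of the 39 with the smallest p were Samd9l, Herc6 and Ifi204, with values of 0.75 ± 0.39, 0.72 ± 0.38 and 0.64 ± 0.32 on the log2 scale (SE, edgeR adjusted p = 0.646 each). All of these are highest in fibronectin_antiITGAV 3; without that library the values were 0.50 ± 0.41, 0.49 ± 0.39 and 0.47 ± 0.34 (SE). The calls of Irf1 and Ifi27l2a under anti-ITGAV and not under IgG are not shown to differ, with interactions of -0.24 ± 0.15 and -0.42 ± 0.22 (SE, adjusted p = 0.646 and 0.646 by edgeR).

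The summed level of the 39 genes overlapped between all 4 groups. It was 3821, 3859, 3829 and 3334 CPM in fibronectin_antiITGAV, 3930.4, 3357, 3338 and 3367 CPM in fibronectin_IgG, 3487, 3955, 3767 and 4107 CPM in uncoated_antiITGAV and 4255, 4156, 3645 and 3228 CPM in uncoated_IgG. The lowest and the highest library were both in uncoated_IgG. With group means removed, the genes shared this library-to-library movement unequally over the 16 libraries. Pearson's r between a gene and the mean of the other 38 was above 0 for 33 of 39 genes and above 0.5 for 22. Ifit3b (0.951), Ifit3 (0.882) and Ddx58 (0.880) were most like the rest, and Ifi27l2a (-0.182), Oas1a (-0.177) and Irf9 (-0.134) least. Among pairs, Ifi204 and Ifi203 had an r of 0.978, Irf7 and Isg15 0.936, Bst2 and Isg15 0.919, Ifit3b and Ifit3 0.858, and Rsad2 and Cmpk2 0.629. These values share libraries, depth and base composition, and are descriptions.

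**Figure D4:**
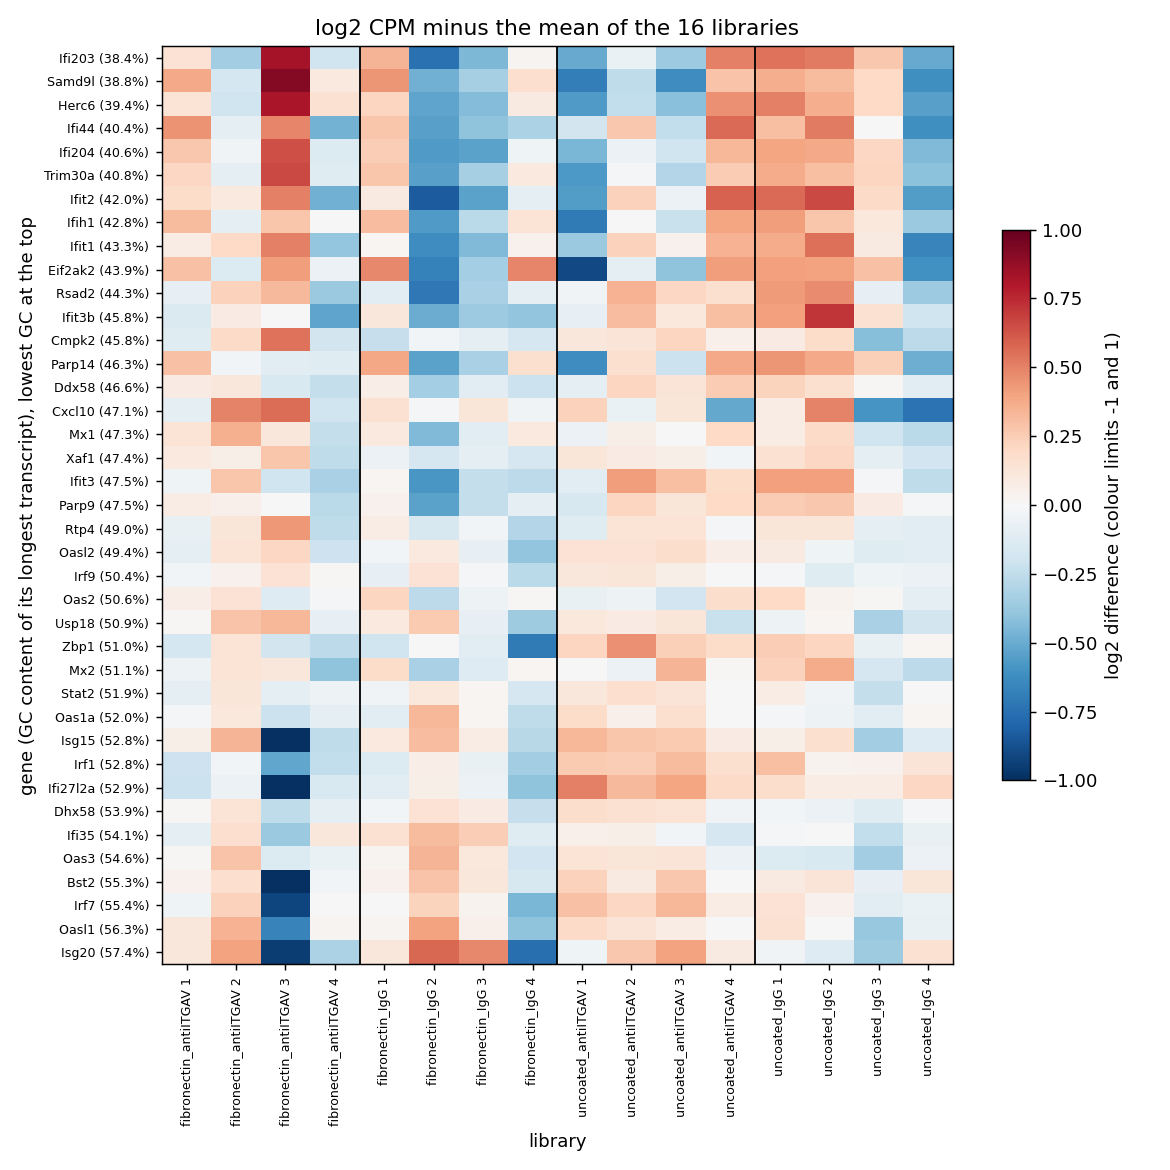
Difference of each gene's log2 CPM from its mean over the 16 libraries (columns, grouped by coating and antibody), with genes ordered by the GC content of their longest transcript, lowest at the top. Colours at the top and bottom of a column are often opposite, most in fibronectin_antiITGAV 3 and fibronectin_IgG 2.

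The genes also split by base composition within a library. Across the 39 genes, which are not independent replicates, Spearman's rho between GC content and a library's deviation from the mean was -0.87 in fibronectin_antiITGAV 3 and 0.87 in fibronectin_IgG 2, with 0.88 in fibronectin_IgG 3 the highest of the 16. For all genes tested the same rho was -0.70 and 0.55, so the trend was present across all genes as well. Samd9l, Ifi203 and Herc6, with 38.8, 38.4 and 39.4% GC, were high in fibronectin_antiITGAV 3 and low in fibronectin_IgG 2. Bst2, Irf7 and Isg15, with 55.3, 55.4 and 52.8% GC, did the opposite. With a smooth GC trend taken out of each library, which was tried only once the data had been seen, r with the mean of the other genes was above 0 for all 39 and above 0.5 for 31. The same step gave 8 genes lower on fibronectin over both antibodies, Irf1 (-0.34 ± 0.05), Ifi27l2a (-0.44 ± 0.07), Zbp1 (-0.36 ± 0.09), Ifit3b (-0.46 ± 0.12), Ifit3 (-0.36 ± 0.11), Rsad2 (-0.33 ± 0.11), Parp9 (-0.25 ± 0.07) and Ddx58 (-0.21 ± 0.07 on the log2 scale, SE), and 0 higher. Calls over all genes were also more numerous with it, 21.1% in either direction and 9.38% lower, and for the antibody it gave 0 calls among the 39. What lies behind the trend was not tested.

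**Figure D5:**
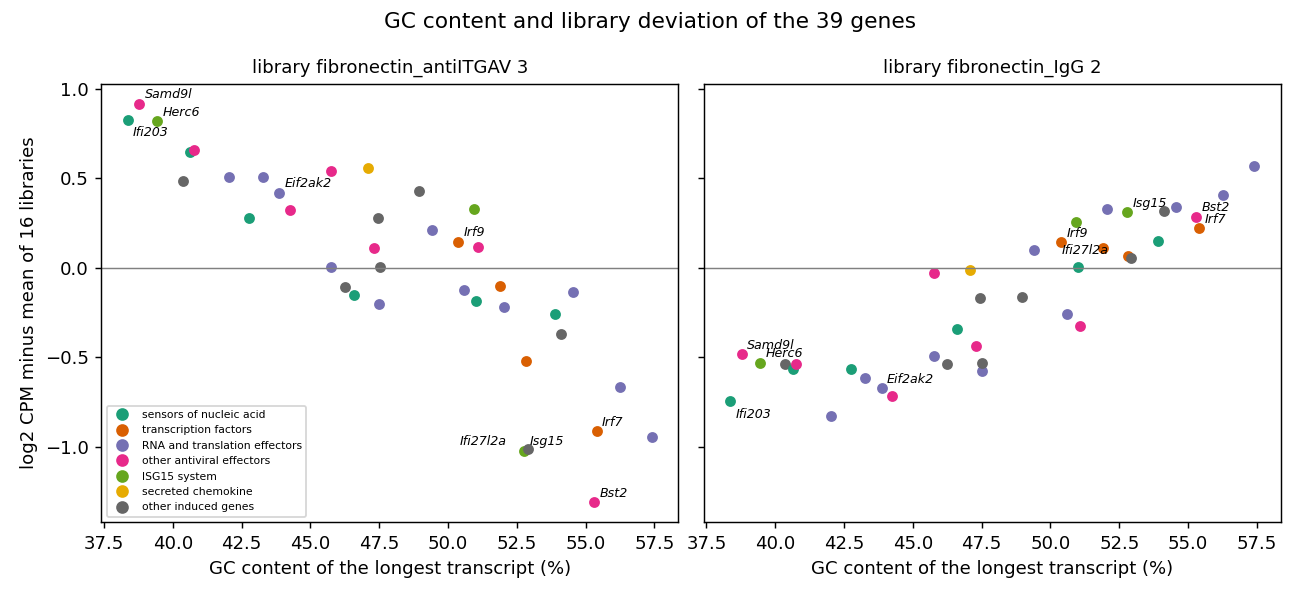
Deviation of the 39 genes' log2 CPM from their mean over 16 libraries against the GC content of the longest transcript (%), in fibronectin_antiITGAV 3 (left) and fibronectin_IgG 2 (right), coloured by role. The points fall with GC content on the left and rise with it on the right.

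Of the genes that make interferon itself, hardly any RNA was counted. Of 21 ligand genes 6 had a count in any library and none could be tested. Ifnb1, the beta interferon that macrophages make first on infection, had 12 counts over all 16 libraries and 0 in 10 of them. The other 15, Ifng among them, were at 0 in every library. With 0 counted, up to 3 counts are still possible in a library, as a limit of counting error only.

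On the receptor side, 2 of 13 genes fell on fibronectin over both antibodies and 0 rose, against 11.8% of all genes called in either direction and 5.26% called lower. Ifnar2, the subunit that binds interferon most tightly, averaged 80.6 ± 4.57 CPM in fibronectin_antiITGAV, 79.9 ± 1.97 CPM in fibronectin_IgG, 98.6 ± 2.47 CPM in uncoated_antiITGAV and 96.9 ± 7.05 CPM in uncoated_IgG (SD, n = 4). Its log2 change was -0.28 ± 0.05 (SE, adjusted p = 0.00175 by edgeR), and it was called under either antibody as well. Ifngr1, the ligand-binding chain of the interferon gamma receptor, had a log2 change of -0.26 ± 0.06 (SE, adjusted p = 0.00766 by edgeR). Ifnar1, the other subunit of the receptor, had -0.04 and was not called. The antibody gave 0 calls in this list in either coating. The list held 3 calls, all lower, without fibronectin_antiITGAV 3, against 15.7% of all genes called in either direction and 6.75% lower.

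Genes that lead to interferon production moved both ways with the coating over both antibodies, with 2 higher and 3 lower of 21, against 11.8% of all genes called in either direction and 5.26% called lower. Cgas, the cytosolic DNA sensor listed as Mb21d1, rose to 30.3 ± 3.33 CPM in fibronectin_antiITGAV and 27.3 ± 3.82 CPM in fibronectin_IgG, against 20.3 ± 2.43 and 21.5 ± 1.89 CPM on uncoated dishes (SD, n = 4). Its log2 change was 0.46 ± 0.09 (SE, adjusted p = 0.00158 by edgeR). Traf3, an adaptor of the pathway to Irf3, rose by 0.31. Tlr9, the endosomal sensor of unmethylated DNA, fell to 15.2 ± 4.09 CPM in fibronectin_antiITGAV and 18.1 ± 4.72 CPM in fibronectin_IgG, against 32.3 ± 0.371 and 27.5 ± 4.51 CPM on uncoated dishes (SD, n = 4). Its log2 change was -0.84 ± 0.13 (SE, adjusted p = 0.000427 by edgeR). Its chaperone Unc93b1 (-0.41) and the Tlr4 adaptor Ticam2 (-0.44) fell too, and exons of Ticam2 overlap the abundant Tmed7. B lymphocytes and plasmacytoid dendritic cells are known to express Tlr9, and their markers are given above. Their part in its fall was not tested. Without fibronectin_antiITGAV 3 the counts were 3 higher and 5 lower, against 15.7% of all genes called in either direction and 6.75% lower.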

How the data were processed

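RNA of 16 macrophage samples, in 4 groups that follow the labelled dish coating and antibody, was poly-A selected and sequenced as paired ends, per the labels' protocols. The authors deposited whole-number counts per gene and, for the same 54532 genes, FPKM. The submitters' processing notes name HISAT2, StringTie and featureCounts, with mm10 and GRCm38.p6 as builds. Tool versions, counting options and strand were not given in the sources used here. Strand is taken as unmarked, since the labels' protocol names dTTP in second-strand synthesis.

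The deposited counts were fitted with edgeR 4.0.16 in R 4.3.3 (robust quasi-likelihood fit, TMM, filterByExpr with a minimum count of 10, 15469 genes, 1 mean per group, all 16 libraries), with Benjamini-Hochberg adjustment over all genes and a threshold of 0.05. FPKM, as deposited by the authors, served for levels between genes. The SE is the log2 change over the square root of F. Averages over an antibody or coating are contrasts of the same fit. GC content is that of the longest GENCODE transcript, known for 15457 tested genes. Alternatives were DESeq2 1.42.0, limma 3.58.1 (voom with quality weights, and log2(FPKM + 1) or log2(FPKM + 0.1)), other scalings and filters, the 8 libraries of a comparison alone, a replicate block and leaving out each library. The GC offset and the TTCNNNGAA search were later additions, chosen with the data in view. The members, gene lists and tests were chosen with earlier results of these data known. Values per library are given for each called gene, the 3 smallest p-values per comparison, a fixed set of pathway genes, and the most and least abundant gene of each role. Of other lists, up to 3 called genes of smallest adjusted p were to be named, and where 5 or fewer were called the rest were named after their values were seen. The fits were tested on simulated counts, and no 2 libraries of a group agreed within sampling noise. Promoters were not used for the 11 members without an entry.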

Additional observations from a re-analysis of the deposited data

Results flagged for a closer look

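Among the 29 genes given by library, the 4 values of each of 4 groups were checked for 1 value far from the other 3, and 4 of 116 checks found one. Chance gives about 1 in 20 groups. All were in uncoated_antiITGAV. Zbp1 had 50.6 CPM in uncoated_antiITGAV 2, and the nearest library had 43.5 CPM. Mx2 had 11.9 CPM in uncoated_antiITGAV 3, and the nearest had 9.49 CPM. Oas3 and Usp18 had 207 and 25.5 CPM in uncoated_antiITGAV 4, below the nearest values of 234 and 31.4 CPM. None of these 4 was in fibronectin_antiITGAV 3.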

How the results depend on the processing

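The 4 genes called on fibronectin stayed lower there when any 1 library was left out. Coating changes of Herc6 and Isg20, both smaller than their SE and not called, changed sign without fibronectin_antiITGAV 3. No median of the 39 genes moved by more than 0.139 on the log2 scale, the within-group SD of a library's median deviation. The medians themselves ran only from -0.12 to 0.11, within that SD, so this cannot show that they are stable. For the antibody and the interaction, 0 of the 39 genes were called under every setting run. For fibronectin under IgG the count of 0 became 4 lower genes with voom quality weights (Zbp1, Irf1, Ifit3b and Ifi27l2a), 3 with the GC offset (Irf1, Ifit3b and Parp9), and 0 to 1 when 1 library was left out (1, Ifit3b, without uncoated_IgG 4). For fibronectin under anti-ITGAV the count of 2 became 1 with limma on log2(FPKM + 1) without a filter, 0 with the 8 libraries alone, and 0 to 2 with 1 library left out. Over both antibodies the count of 4 became 8 with voom quality weights and 8 with the GC offset, 2 with limma on FPKM without a filter, and 2 to 5 with 1 library left out (2 without uncoated_IgG 1 or uncoated_antiITGAV 2). Calls over all genes changed with the settings too, so these counts alone are not a result about the 39. Over both antibodies 1340 to 4128 of all genes were called under other settings, against 1831 in the main fit. With the GC offset 21.1% of all genes were called there in either direction and 9.38% lower, against 11.8 and 5.26%. The cause was not tested.

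Replicates share numbers across groups, and the labels do not say whether the numbers pair samples. Deviations of samples with the same number had correlations from -0.30 to 0.26, and those with different numbers from -0.26 to 0.25. The 2 ranges are alike, so these correlations give no sign of pairing, but they cannot exclude it. With the replicate number as a block, the change of Ifit3b over both antibodies was -0.44 on the log2 scale (edgeR adjusted p = 0.0585), and no other call of the 39 was lost.

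Calls over all genes depended more on the settings. For fibronectin under IgG there were 586, with 309 to 2481 under other settings and 253 to 1325 with 1 library left out (1325 without fibronectin_antiITGAV 3, and 253, 273, 282, 279 and 320 without uncoated_IgG 1, 2 or 3 or fibronectin_IgG 3 or 4). Under anti-ITGAV there were 876, with 251 to 2173 and 428 to 1037 (530, 428, 454 and 578 without uncoated_antiITGAV 1, 2 or 3 or fibronectin_antiITGAV 4), and over both antibodies 1831, with 1340 to 4128 and 1325 to 2468. For the antibody there were 2 on uncoated dishes (0 to 109 and 0 to 2), 2 on fibronectin (0 to 18 and 1 to 5) and 11 over both coatings (8 to 108 and 4 to 22).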

Other observations

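Guanylate-binding proteins and their relatives are induced chiefly by interferon gamma. Of 15 tested guanylate-binding proteins, immunity-related GTPases and class II regulators, 5 fell and 0 rose over both antibodies, with a median log2 change of -0.38, against 0.00 for all genes. Of all genes 11.8% were called in either direction and 5.26% lower. Gbp5, which promotes inflammasome assembly, averaged 4.86 ± 0.766 CPM in fibronectin_antiITGAV, 5.45 ± 0.352 CPM in fibronectin_IgG, 9.20 ± 1.91 CPM in uncoated_antiITGAV and 10.4 ± 3.00 CPM in uncoated_IgG (SD, n = 4), and its log2 change was -0.93 ± 0.14 (SE, adjusted p = 0.000301 by edgeR). Gbp3 had -0.74 ± 0.14 (SE, adjusted p = 0.00216 by edgeR) and Gbp2 -0.51 ± 0.11 (SE, adjusted p = 0.00630 by edgeR). Gbp8 (-1.12) and Gbp7 (-0.73) were the other calls, Gbp7 sharing 10.2% of its 100-base windows with other genes. Under IgG Gbp3 and Gbp5 were called, and under anti-ITGAV Gbp2 and Gbp5. Without fibronectin_antiITGAV 3 the count over both antibodies was again 5, with Irgm2 called and Gbp7 not, and with the GC offset it was 8. Of all genes 6.75% were called lower without that library (15.7% in either direction) and 9.38% with the GC offset (21.1%). The antibody gave 0 calls. Some B lymphocyte, mast cell and neutrophil markers fell with the same coating, and their part was not tested.

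Of 52 tested further interferon-stimulated genes, 4 rose and 9 fell on fibronectin over both antibodies, with a median of -0.07, against the same shares of all genes, 11.8% in either direction and 5.26% lower. Ccl12, a monocyte chemoattractant, averaged 15.4 ± 7.34 CPM in fibronectin_antiITGAV, 12.5 ± 0.941 CPM in fibronectin_IgG, 4.71 ± 1.06 CPM in uncoated_antiITGAV and 4.98 ± 0.771 CPM in uncoated_IgG (SD, n = 4), and its log2 change was 1.51 ± 0.18 (SE, adjusted p = 4.69e-05 by edgeR). Dtx3l, the partner of Parp9, had -0.38 ± 0.08 (SE, adjusted p = 0.00321 by edgeR), and Apobec3, a cytidine deaminase that restricts retroviruses, -0.27 ± 0.06 (SE, adjusted p = 0.00498 by edgeR). Exons of Dtx3l and Parp9 overlap, as given above, and their reads there cannot be told apart. Without fibronectin_antiITGAV 3 the counts were 6 higher and 10 lower, against 15.7% of all genes called in either direction and 6.75% lower. The antibody gave 0 calls in this list.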
